A study of Mus musculus with 6 samples.

Results

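The complement components and regulators of SL4 cells were examined as 9 genes, C1ra, C1s1, C2, C3, C4b, Cfb, Serping1, Cd55 and Cd59a, each found by its gene name among the 53700 genes of the deposited table. Each of the 9 names belonged to 1 mouse Ensembl identifier, which is ENSMUSG00000055172 for C1ra, ENSMUSG00000038521 for C1s1 and ENSMUSG00000024164 for C3. SL4 cells are a luciferase-carrying mouse colorectal cancer (CRC) line, and RNA-seq was performed on 3 libraries of SL4 cells without SEMA6A overexpression (pLV-Control) and 3 libraries of SL4 cells that stably overexpress SEMA6A from a lentivirus (pLV-SEMA6A). The name pLV-Control is the paper's, and the sources do not state whether the sequenced control cells carry an empty vector. The comparison of these groups asks which transcripts differ once SEMA6A is overexpressed. The sources describe no independently made pLV-SEMA6A lines and no separate cultures behind the replicates, so a difference between the groups cannot be told apart from a difference between cell lines, and the p-values measure the spread between these libraries, which may be technical.

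Complement is a cascade of plasma and surface proteins that marks targets for removal and can punch pores into membranes. Its classical branch starts with C1, in which the protease C1r activates the protease C1s, which cleaves C4 and C2. The resulting convertases, like the alternative branch enzyme that contains factor B, cleave C3, and the regulators C1 inhibitor, CD55 and CD59 hold the cascade back at the C1, convertase and pore steps. The liver makes most circulating complement, but tumor cells, fibroblasts and macrophages also produce components, and interferons and inflammatory cytokines are known inducers of several of these genes.

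The deposited unit, TPM, divides out transcript length and scales each library toward a common total, so sequencing depth is unknown. Values carry no counting interval. The listed values summed to between 977400 and 986444 TPM in a library. Values of log2(TPM + 1) over the tested genes correlated at 0.967 to 0.978 within groups and at 0.941 to 0.957 between them. Sema6a itself was at 0 in the 3 pLV-Control libraries, against 98.68, 118.42 and 112.22 TPM after overexpression, as labelled. A low or 0 value can be a failed estimate, as for mt-Co3, whose 0.33 TPM in pLV-SEMA6A replicate 2 stood against 141 to 450 TPM elsewhere. The 7 colon epithelial markers checked were all under 1 TPM in every library, with Epcam and Cdx2 at 0. The colorectal origin that the paper gives for the line was thus not visible in these markers. The 5 hepatocyte markers, 3 of them at 0, summed to at most 0.07 TPM in a library, and the 4 endothelial markers, 2 of them at 0, to at most 0.15 TPM. The 4 fibroblast markers summed to 114.23 to 130.03 TPM in pLV-Control and to 175.04 to 182.08 TPM in pLV-SEMA6A, almost all of it Col3a1. These 4 did not move as 1 list. Col3a1 and Col1a1 rose (log2 fold change 0.53 and 1.02, limma adjusted p = 0.000345 and 0.000681). Pdgfra fell (−0.63, limma adjusted p = 0.0219), and Dcn stood at −0.08 (limma adjusted p = 0.692). Pdgfra reached the mean of 1 TPM needed for testing only through its control libraries. Its mean was 1.27 TPM over the 6 libraries but 0.78 TPM with SEMA6A overexpressed. In the fit without that minimum, the limma adjusted p of Pdgfra was 0.0254. The 5 leukocyte and macrophage markers, 4 of them under 1 TPM in every library, summed to 11.42 to 12.41 and to 15.44 to 17.48 TPM, almost all of it Cd14, while Ptprc, the leukocyte common antigen, was at most 0.04 TPM. Both of these sums moved with the groups, and their part in the differences described here was not tested.

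C1ra fell in pLV-SEMA6A, and it was the only one of the 9 complement genes to pass the criteria at a mean level of 1 TPM or more. Its mean went from 6.61 to 2.63 TPM, which is 2.51-fold lower. C1s1, C2, C3, C4b and Cfb also had every pLV-SEMA6A library below every pLV-Control library, but C1s1 did not pass the test and the other 4 lay below the level at which genes were tested. Cd59a differed less and its groups overlapped, Serping1 was near 0, and Cd55 was listed at 0 in all 6 libraries. No member was higher in pLV-SEMA6A. In these bulk libraries, fewer cells that express a gene and less RNA of it per cell cannot be told apart.

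**Figure D1:**
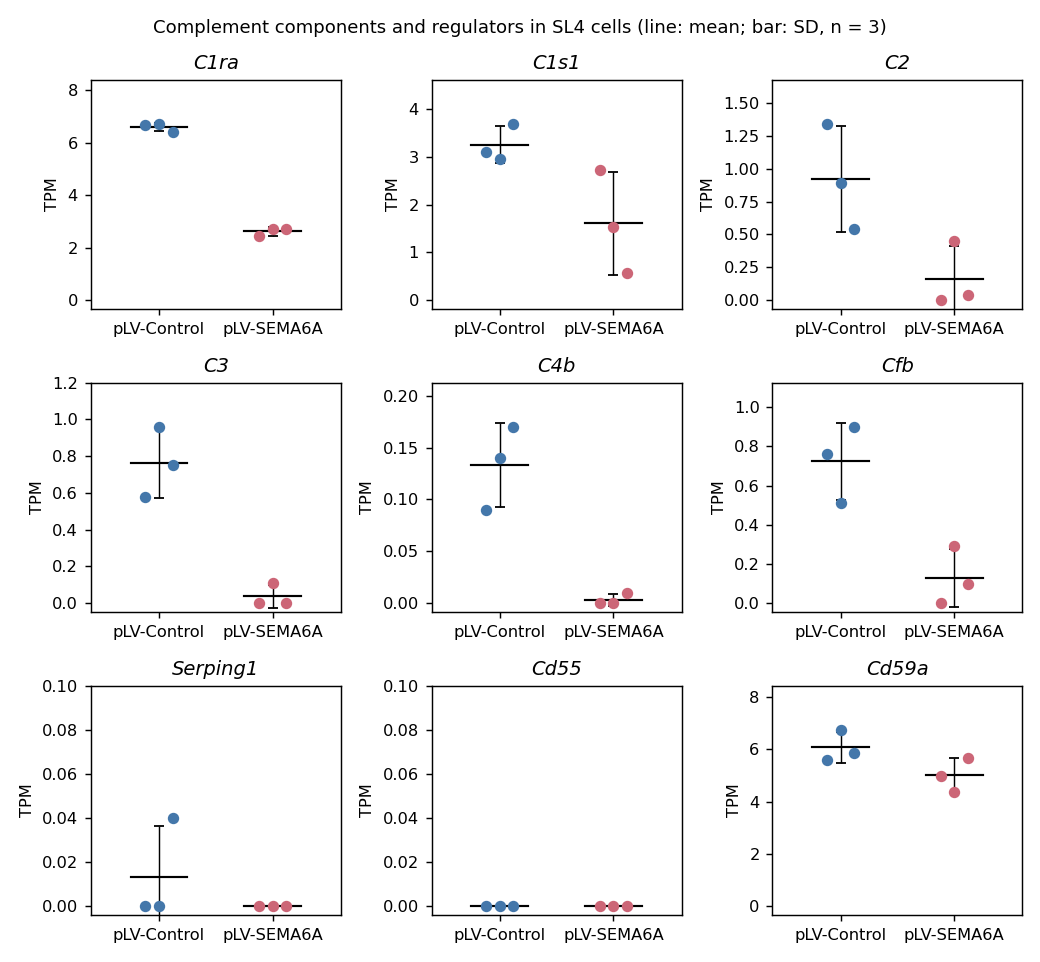
Deposited TPM of the 9 complement genes, 1 panel per gene, with a point for each pLV-Control (blue) and pLV-SEMA6A (red) library, a line at the group mean and a bar for the SD (n = 3). The vertical scales differ between panels, and the groups are apart in C1ra, C1s1, C2, C3, C4b and Cfb, while the Cd59a groups overlap and the Cd55 values are all 0.

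Testing used limma on log2(TPM + 1) and covered the 12510 genes whose mean reached 1 TPM, with Benjamini-Hochberg adjustment. A DEG needed an adjusted p under 0.05 together with a log2 fold change (pLV-SEMA6A minus pLV-Control) beyond 0.5 in either direction. Of the 9 members, 3 reached that mean, 5 were above 0 but below it, and 1 was at 0 throughout. The 3 tested members gave 1 downregulated DEG, where 10.8% of all tested genes were downregulated DEGs and 15.9% were DEGs in either direction. Over all tested genes 1347 DEGs were lower and 640 higher, a split that became 961 lower and 1002 higher after centring every library on its median, and 943 and 886 after quantile normalization. Without the filter, 3 of the 8 members above 0 were downregulated DEGs, namely C1ra, C3 and Cfb, against 5.58% of the 24518 genes in that fit. Libraries that did not overlap, with pLV-SEMA6A lower, were found for 4 of the 5 members above 0 but under 1 TPM. The share was 6.65% of the 12008 genes with a mean under 1 TPM that were above 0 in any library. Those include genes above 0 in too few libraries to separate the groups, and the members were chosen with earlier results known. Among tested genes, libraries did not overlap, with pLV-SEMA6A lower, for 2 of the 3 members and for 34.7% of all.

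Promoters from RefSeq on GRCm38.p6 were found by symbol for 5 of the 9 members, C1ra, C1s1, C3, Cd55 and Cd59a. C2, C4b, Cfb and Serping1 had no entry. The 250 bases before the start were searched on both strands for 3 motifs, chosen with these results known. The core of the interferon-stimulated response element, GAAANNGAA, occurs in 7.13% of the 32851 RefSeq windows. The gamma-activated site, TTCNNNGAA, occurs in 7.02%, and the C/EBP core, TTNCGNAA, which reads the same on both strands, in 2.04%. C1ra, C1s1 and Cd55 had no match to the 3 motifs, C3 had a C/EBP core from 45 to 38 bases before its start, and Cd59a had an interferon-stimulated response element core from 187 to 179 bases before its start. The windows of C3, whose libraries separated at low level, of C1s1, which did not pass, and of Cd59a, whose groups overlapped, are given 5′ to 3′ on the strand of the gene, with motif matches in capitals. They are chr17:57228137-57228386 (minus strand) for C3, chr6:124542360-124542609 (minus strand) for C1s1 and chr2:104095551-104095800 (plus strand) for Cd59a. C1s1 also had a window from another start, chr6:124542322-124542571 (minus strand), which overlaps the printed one and is not shown. The C1ra window overlaps an annotated exon and is not printed.
C3: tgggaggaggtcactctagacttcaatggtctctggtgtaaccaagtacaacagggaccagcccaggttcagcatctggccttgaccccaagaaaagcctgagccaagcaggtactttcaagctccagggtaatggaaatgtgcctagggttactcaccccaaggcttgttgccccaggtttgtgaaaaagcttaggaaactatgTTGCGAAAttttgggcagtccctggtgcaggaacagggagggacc
C1s1: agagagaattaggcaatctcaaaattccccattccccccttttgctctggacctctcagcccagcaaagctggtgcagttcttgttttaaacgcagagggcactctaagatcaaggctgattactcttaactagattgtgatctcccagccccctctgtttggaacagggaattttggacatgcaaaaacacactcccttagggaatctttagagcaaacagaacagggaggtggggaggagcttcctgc
Cd59a: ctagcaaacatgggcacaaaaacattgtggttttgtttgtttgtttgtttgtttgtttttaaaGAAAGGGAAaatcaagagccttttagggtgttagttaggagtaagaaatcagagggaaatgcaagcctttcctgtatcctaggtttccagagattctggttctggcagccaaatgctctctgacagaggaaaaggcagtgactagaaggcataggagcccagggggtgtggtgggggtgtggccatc
A match is a description of these letters and not a bound site. Whether a motif bears on the level of a gene was not tested.

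C1ra encodes the serine protease that activates C1s inside C1. Its 3 pLV-Control libraries held 6.68, 6.72 and 6.42 TPM, and its 3 pLV-SEMA6A libraries held 2.44, 2.73 and 2.72 TPM. The libraries of each group lay close together, far from those of the other group. Group means stood at 6.61 ± 0.163 against 2.63 ± 0.165 TPM (SD, n = 3 each), and the log2 fold change was −1.07 (standard error 0.08, 95% interval from −1.27 to −0.86, limma adjusted p = 0.000144). An exact permutation test, two-sided, gave p = 0.1, the lowest value possible with 3 libraries a group. Among the 1347 downregulated genes 251 fell more than C1ra. The near copy C1rb contains 56.9% of the 31-base stretches of the C1ra transcript, but C1rb was listed at 0 in all libraries, so the sum of both genes is the C1ra value.

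C1s1 encodes the protease that C1r activates and that cuts C4 and C2. Levels were 3.11, 2.96 and 3.69 TPM without SEMA6A overexpression, against 2.72, 1.54 and 0.57 TPM with it. The groups did not overlap, yet the pLV-SEMA6A libraries were spread widely, with replicate 1 close to the pLV-Control values and replicate 3 far below. Group means stood at 3.25 ± 0.386 against 1.61 ± 1.08 TPM (SD, n = 3 each), with a log2 fold change of −0.79 (95% interval from −1.53 to −0.05) and a limma adjusted p of 0.077. Without pLV-SEMA6A replicate 1 the log2 fold change was −1.09 and passed (limma adjusted p = 0.0182), and without replicate 3 it was −0.46 (limma adjusted p = 0.126). The paralog C1s2 contains 33.5% of the 31-base stretches of C1s1 transcripts and was listed at 0 in 5 libraries and at 0.05 TPM in pLV-SEMA6A replicate 3.

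C1r and C1s sit in C1 as a pair of each, so the ratio of their transcripts was followed per library, which no scaling of a library can move. C1ra over C1s1 gave 2.15, 2.27 and 1.74 in pLV-Control, against 0.897, 1.77 and 4.77 in pLV-SEMA6A. The control ratios were close to each other and lay within the much wider range of the SEMA6A ratios. The mean log2 ratio was 1.03 ± 0.2 and 0.97 ± 1.21 (SD, n = 3 each), and the difference of −0.05 was not detectable (exact permutation p = 1, two-sided). Both proteases summed to 9.79, 9.68 and 10.11 TPM in pLV-Control, against 5.16, 4.27 and 3.29 TPM in pLV-SEMA6A, a mean 2.33-fold lower (exact permutation p = 0.1, two-sided).

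**Figure D2:**
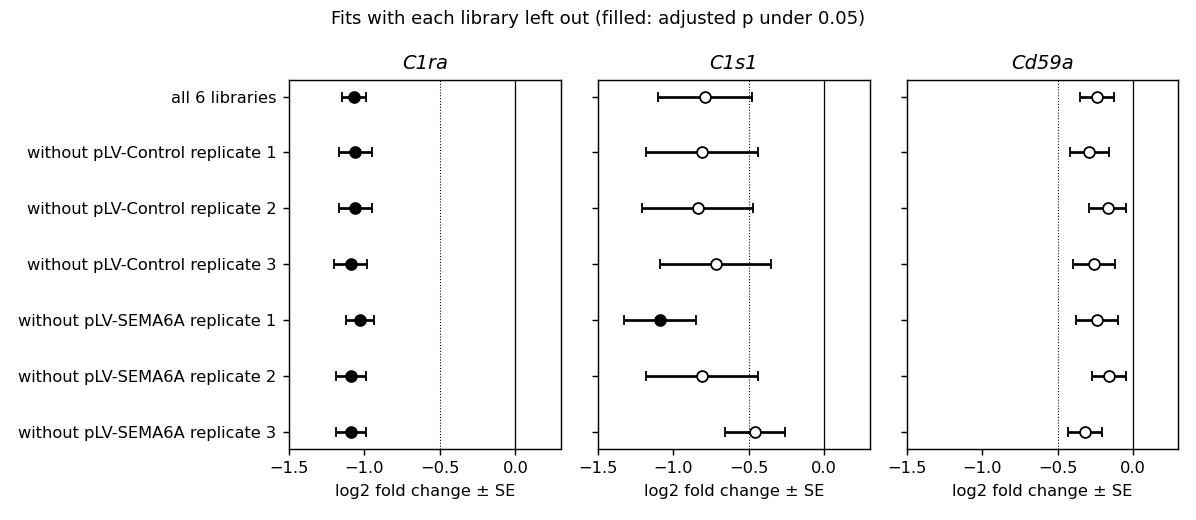
Log2 fold change of TPM + 1 (pLV-SEMA6A minus pLV-Control, ± SE) of the 3 tested members, in the fit of all 6 libraries and in the 6 fits that each left out 1 library, with filled points for an adjusted p under 0.05. C1ra stayed between −1.09 and −1.03 and passed each time, C1s1 ranged from −1.09 to −0.46 and passed only without pLV-SEMA6A replicate 1, and Cd59a ranged from −0.32 to −0.16 and never passed.

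The parts of the convertases were all below 1 TPM in the mean of the 6 libraries. Their differences are given on the log2(TPM + 1) scale, which understates change at such levels. C3, whose cleavage is the central step of all branches, measured 0.58, 0.96 and 0.75 TPM in pLV-Control, against 0, 0.11 and 0 TPM in pLV-SEMA6A. Every pLV-Control library was thus well above every pLV-SEMA6A library. The log2 difference was −0.76 (standard error 0.1), and in the fit without a filter the limma adjusted p was 0.0034. C3 was a DEG in all 6 fits without a filter that left out 1 library (limma adjusted p from 0.00584 to 0.0188). The printed window of C3 is the one with the C/EBP core. C3 transcripts shared none of their 31-base stretches with other genes.

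Cfb encodes factor B, which forms the alternative branch convertase with C3b. The pLV-Control libraries held 0.76, 0.51 and 0.9 TPM of Cfb, and the pLV-SEMA6A libraries 0, 0.29 and 0.1 TPM. The groups did not overlap, and pLV-SEMA6A replicate 2 came nearest to the pLV-Control range. The log2 difference was −0.61, with a limma adjusted p of 0.0224 without the filter. Cfb kept both DEG criteria in 2 of the 6 fits without a filter that left out 1 library (limma adjusted p from 0.022 to 0.0757). It lost them in the other 4, which left out pLV-Control replicate 1 or 3 or pLV-SEMA6A replicate 1 or 3. With the filter off, it also lost them with each library centred on its median (log2 difference −0.49, limma adjusted p = 0.03).

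C2 is the classical branch counterpart of factor B. Its levels were 1.34, 0.89 and 0.54 TPM in pLV-Control, against 0, 0.45 and 0.04 TPM in pLV-SEMA6A, so the lowest pLV-Control library lay only slightly above the highest pLV-SEMA6A library. The log2 difference was −0.73, with a limma adjusted p of 0.062 without the filter. Leaving out pLV-SEMA6A replicate 2 made C2 a DEG in that fit (limma adjusted p = 0.0387).

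C4b encodes C4, the partner of C2 in the classical convertase. The pLV-Control libraries held 0.09, 0.14 and 0.17 TPM of C4b, and the pLV-SEMA6A libraries 0, 0 and 0.01 TPM, low in all libraries but without overlap. The log2 difference of −0.18 did not reach the minimum of 0.5 (limma adjusted p = 0.0199 without the filter), and without the filter it was −0.05 once each library was centred on its median (limma adjusted p = 0.37). Before centring, the mean library median over the genes in that fit differed by −0.12 between the groups (pLV-SEMA6A minus pLV-Control). With a pseudocount of 0.1 and no filter the C4b difference was −1.16 and C4b was a DEG (limma adjusted p = 0.0147). The neighbouring copy C4a contains 48.3% of the 31-base stretches of C4b transcripts, so their reads could have been split. C4a and C4b together reached 0.32, 0.71 and 2.12 TPM in pLV-Control, against 0.05, 0.27 and 0.38 TPM in pLV-SEMA6A. These sums overlapped, with pLV-Control replicate 1 below pLV-SEMA6A replicate 3 (exact permutation p = 0.2, two-sided).

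C2, C3, C4b and Cfb summed to 2.77, 2.5 and 2.36 TPM in pLV-Control, against 0, 0.85 and 0.15 TPM in pLV-SEMA6A (exact permutation p = 0.1, two-sided). All 4 genes were listed at 0 in pLV-SEMA6A replicate 1, and C2, C3 and Cfb were highest among the pLV-SEMA6A libraries in replicate 2. For the C1 protease C1s1 the order was different, with replicate 1 the highest. The gene Gm20547 spans C2 and Cfb on the same strand and contains 40.2% and 75.5% of their 31-base stretches. It was listed at no more than 0.03 TPM, and part of the C2 and Cfb reads could have been assigned to it. Zbtb12 overlaps C2 on the opposite strand and was at 11.2 to 19.75 TPM, and the sources do not say whether strand was used in counting.

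Serping1 encodes C1 inhibitor, the secreted serpin that inactivates C1r and C1s. It was listed at 0 in 5 libraries and at 0.04 TPM in pLV-Control replicate 3, and no fold change is given. Cd55, decay accelerating factor, which takes convertases apart on the cell surface, was listed at 0 in all 6 libraries, and so was its copy Cd55b. Cd59a encodes the membrane inhibitor of the terminal pore. Levels of Cd59a were 5.61, 6.76 and 5.88 TPM in pLV-Control, against 4.99, 4.36 and 5.67 TPM in pLV-SEMA6A. The highest pLV-SEMA6A library lay just above the lowest pLV-Control library. Group means stood at 6.08 ± 0.601 against 5.01 ± 0.655 TPM (SD, n = 3 each), with a log2 fold change of −0.24 (95% interval from −0.51 to 0.03, limma adjusted p = 0.126). Cd59b, its neighbour, held 0.44, 0.43 and 0 TPM in pLV-Control, against 2.22, 0.36 and 1.26 TPM in pLV-SEMA6A, and contains 8.23% of the 31-base stretches of Cd59a transcripts. The sum of both was 6.37 ± 0.712 and 6.29 ± 1.36 TPM (SD, n = 3 each), with exact permutation p = 0.9, two-sided.

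In pLV-Control the order of the levels in TPM was C1ra, Cd59a, C1s1, C2, C3, Cfb, C4b, Serping1 and Cd55. The ranges of C1ra and Cd59a overlapped, as did those of C2, C3 and Cfb, whereas C1s1 lay between these groups without touching either. In pLV-SEMA6A Cd59a was the highest, above C1ra in every library, and the ranges of C1s1 and C1ra overlapped.

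The other genes of the pathway, 49 that are not among the 9, were mostly low or at 0. Of these, 20 were listed at 0 in all libraries, 20 were above 0 with a mean under 1 TPM, and 9 were tested. The 9 gave 1 downregulated DEG, Cd46, and 0 upregulated DEGs at the minimum of 0.5 by limma, while 7 of them had an unadjusted p under 0.05. By the adjusted p alone 2 were lower, 4 were higher and 3 did not pass. Over all 12510 tested genes, 6873 had an unadjusted p under 0.05 by limma. By the adjusted p alone, 3523 of all tested genes were lower, 2436 were higher and 6551 did not pass. The median log2 fold change was −0.02 for these 9 and −0.06 for all tested genes. For the 3 tested members the median, −0.79, is simply the value of C1s1, which did not pass.

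**Figure D3:**
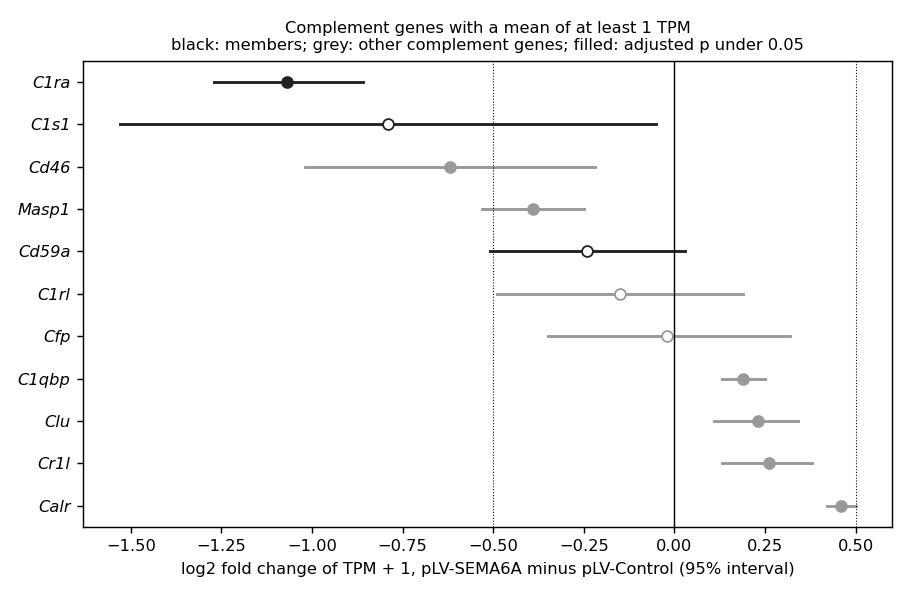
Log2 fold change of TPM + 1 (pLV-SEMA6A minus pLV-Control) with its 95% interval for 11 tested complement genes, with the 3 members in black, 8 others in grey, filled points for an adjusted p under 0.05 and dotted lines at the minimum of 0.5. C1ra lies farthest to the left at −1.07 with a narrow interval, C1s1 has the widest interval, and Calr lies farthest to the right at 0.46.

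For the recognition steps upstream of C1r and C1s, C1qa, C1qb and C1qc, the chains of C1q, were listed at 0 in every library. So were the lectin branch sensors Mbl1, Mbl2 and Fcnb. The sensors Fcna, Colec11 and Colec10 reached at most 0.74, 0.28 and 0.01 TPM in a library. Masp1, a protease of the lectin branch, was tested and fell from 21.3 ± 0.826 to 16.1 ± 0.826 TPM (SD, n = 3 each, log2 fold change −0.39, limma adjusted p = 0.00188), which did not reach 0.5. C1rl, a C1r-like protease beside C1ra, was at 1.54 ± 0.0945 and 1.29 ± 0.154 TPM (SD, n = 3 each, limma adjusted p = 0.403). Cfp, properdin, which stabilizes the alternative convertase, was at 4.51 ± 0.436 and 4.49 ± 0.849 TPM (SD, n = 3 each), with a 95% interval of the log2 fold change from −0.35 to 0.32. Cfd, the protease that activates factor B, was listed at 0 throughout.

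Of the terminal pathway, C7, C8b and C9 were listed at 0 in all libraries. Hc, the mouse gene of C5, held 0.13, 0.25 and 0.16 TPM in pLV-Control, against 1.24, 0.51 and 0.52 TPM in pLV-SEMA6A. Its pLV-SEMA6A libraries all lay above the pLV-Control libraries, and without the filter its limma adjusted p was 0.0746. Such a separation, with pLV-SEMA6A higher, was found for 401 of the 12008 genes above 0 with a mean under 1 TPM.

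Regulators outside the 9 moved in both directions. Cd46, a membrane cofactor for the cleavage of C3b and C4b, fell from 1.97 ± 0.389 to 0.917 ± 0.136 TPM (SD, n = 3 each, log2 fold change −0.62, limma adjusted p = 0.0216). Its mean over the 6 libraries, 1.44 TPM, passed the filter only through pLV-Control, since its pLV-SEMA6A mean lay below 1 TPM. Cd46 kept the DEG criteria in 2 of the 6 fits that left out 1 library. It lost them without pLV-Control replicate 1 or 3 or without pLV-SEMA6A replicate 2 or 3 (limma adjusted p up to 0.0705), and after quantile normalization (−0.46, limma adjusted p = 0.0637). Cr1l, the rodent membrane regulator Crry, was the membrane regulator with the highest TPM on the list and rose from 78.7 ± 4.35 to 94.1 ± 3.84 TPM (SD, n = 3 each, log2 fold change 0.26, limma adjusted p = 0.00684). Clu, clusterin, which binds forming terminal complexes, rose by 0.23 on the log2 scale (limma adjusted p = 0.0094). The rises of Cr1l and Clu and the fall of Masp1 kept their direction and passed under median centring and quantile normalization and with each library left out.

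C1qbp and Calr, proteins that can bind C1q and have other main roles in mitochondria and in the endoplasmic reticulum, were at 309 ± 2.72 and 789 ± 10.8 TPM in pLV-Control (SD, n = 3 each). In pLV-SEMA6A the log2 fold change was 0.19 for C1qbp (limma adjusted p = 0.00135) and 0.46 for Calr (limma adjusted p = 9.06e-06). Calr passed the minimum of 0.5 only after centring libraries on their medians, at 0.55. Receptors for complement fragments were low, with C3ar1 at no more than 0.52 TPM, C5ar1 at 0 and C5ar2 at no more than 0.02 TPM in any library.

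**Figure D4:**
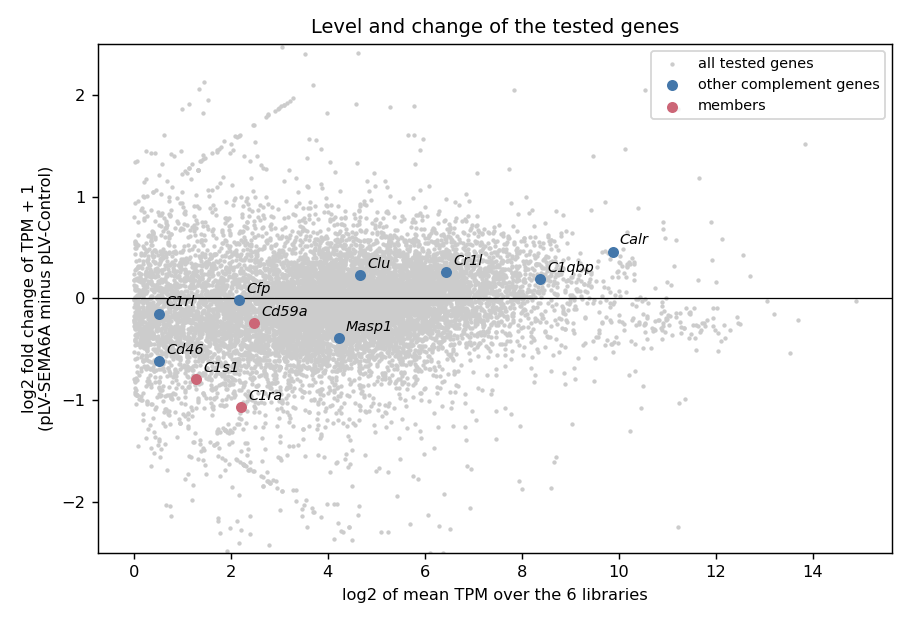
Log2 of the mean TPM over the 6 libraries against the log2 fold change of TPM + 1 for all 12510 tested genes (grey), with 8 other complement genes in blue and the 3 members in red; 61 genes beyond 2.5 in either direction are outside the plot. C1ra and C1s1 lie at the lower left, at −1.07 and −0.79, and the abundant C1qbp and Calr lie to the right above 0.

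The members fall into a few places in the genome. C1ra and C1s1 lie side by side on chromosome 6, and C2, Cfb and C4b lie in the class III region of the major histocompatibility complex on chromosome 17, which also holds C3 at a distance. Around C2, Cfb and C4b, 7 genes within 50 kb were tested, of which Neu1 (log2 fold change −0.76) and Zbtb12 (−0.62) were downregulated DEGs and 0 were upregulated DEGs. The log2 fold changes of these 7 ranged from −0.76 to 0.22, with Dxo and Skiv2l above 0 and the other 5 below it. The neighbour of C1ra and C1s1 that was tested, C1rl, was not a DEG, nor were Gpr108 and Trip10 beside C3 or Fbxo3 beside Cd59a. Near Serping1 on chromosome 2, Ube2l6 (−2.30) and Ypel4 (−0.70) were downregulated DEGs among 4 tested genes, where 10.8% of all tested genes were, and Clp1 (0.31) and Gm19426 (0.79) were higher without being DEGs. Cd55 on chromosome 1 had no tested neighbour.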

How the data were processed

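RNA-seq of SL4 cells compared 3 pLV-Control with 3 pLV-SEMA6A libraries. Poly-A mRNA was captured, fragmented and reverse transcribed with random primers before Illumina sequencing. The authors deposited TPM per library with 2 decimals, and mean TPM per group, which was not used. The submitters' processing notes list HISAT, Bowtie2 and RSEM and the build mm39, without roles or versions; the annotation is not given in the sources used here.

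log2(TPM + 1) was fitted with limma 3.58.1 (R 4.3.3, trend option, group as the only term) for genes whose mean reached 1 TPM. The Benjamini-Hochberg adjusted p of a DEG was under 0.05 and its log2 fold change beyond 0.5. The count model named by the study needs read counts, which TPM does not keep. Exact permutation tests were two-sided. The members and lists were chosen with earlier results of these data known. Named are the 9 members, the tested genes of the complement list, paralogs, overlapping genes and, where 5 or fewer, tested neighbours within 50 kb. Other untested genes of the list were named after their values were seen. Of the tested list genes, 1 is counted but otherwise not reported.

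Shared 31-base stretches and neighbours came from GENCODE on GRCm38, which is not the stated build, so no gene coordinates from it are given. Ratios involving a gene listed at 0 were left out. The steps were tested on simulated data. Alternatives were another pseudocount, other filters, no trend, other minimum fold changes, scalings, the replicate block and leaving out each library.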

Additional observations from a re-analysis of the deposited data

How the results depend on the processing

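The count of DEGs over all genes, 1987, became 5959 without a minimum fold change and 385 with a minimum of 1. Of the members, 1 was a DEG, against 3 without the filter and 0 with a filter at 5 TPM, where Cd59a was the only member tested (limma, 0 at an unadjusted p under 0.05); it was 1 to 2 with each library left out, the 2 being C1ra and C1s1 without pLV-SEMA6A replicate 1. Of the other complement genes, 1 was a DEG, against 0 with a filter at 5 TPM, 2 after median centring, 0 after quantile normalization, 6 without a minimum fold change, 0 with a minimum of 1, and 0 to 1 with each library left out (limma, 5 to 7 at an unadjusted p under 0.05 in the fits with 0).

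C1ra passed under all 12 alternatives in which it was tested, from −1.30 to −0.89. C1s1 ranged from −1.09 to −0.46 with each library left out. With a pseudocount of 0.1 the log2 difference was −2.30 for C2, −2.73 for C3, −1.16 for C4b and −2.02 for Cfb, since a smaller pseudocount stretches low values. The log2 ratio of C1ra to C1s1 ranged from −0.69 to 0.51 with each library left out.

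Deviations from the group means did not pair libraries by replicate number (correlations from −0.08 to −0.02). A replicate block gave 1924 DEGs over all genes, C1ra stood at −1.07 in it (limma adjusted p = 0.00273), C1s1 −0.79 and Cd59a −0.24, and the block changed no call of a tested member. Fits without the filter combined with another choice were chosen after seeing the data, and they gave 2 to 4 members as DEGs, always including C1ra and C3, and with the block Cfb was not among them (limma adjusted p = 0.0889). TPM gives no depth, so values under 1 TPM carry no known counting error.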
